A study of Mus musculus with 4 samples.

Results

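The cells described here were CD8 T cells that carried abundant Ccl5 together with Ccr2 or Itga1 and lacked the marks of terminal effector, exhausted, interferon-high or dividing cells. They were taken barcode by barcode from the raw counts. Barcodes were kept if 500 or more genes were detected and mitochondrial genes gave no more than 10% of the UMIs (unique molecular identifiers, each standing for 1 captured transcript). A kept barcode was a member if it held at least 3 UMIs of Ccl5 and at least 1 UMI of Ccr2 and Itga1 together. It could hold at most 1 UMI of Klrg1, Cx3cr1 and S1pr5 together, none of Havcr2 or Pdcd1, at most 1 of the Ly49 receptor genes Klra1, Klra3, Klra6 and Klra7, at most 3 of Isg15, Ifit1, Ifit3, Rsad2 and Usp18, and at most 1 of Mki67, Top2a, Birc5 and Ube2c. Of 38316 barcodes of sufficient quality, 1515 met the rule. Because these 21 genes chose the cells, their levels below describe the choice and support nothing.

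All 4 libraries came from CD8 T cells sorted as live, CD45, CD3 and CD8 positive from B16F10 tumours, a transplantable melanoma, in C57BL/6J mice aged 6 to 8 weeks. The 2 sgScr libraries, named for a scrambled guide RNA, were the controls, and the 2 sgArid1a libraries were named for a guide RNA against Arid1a, which encodes a subunit of SWI/SNF chromatin remodellers. The labels do not state which cells carried the guide, nor whether replicates were separate animals. The p-values below therefore measure only how far these samples spread, and that spread may be technical. The series title sets the comparison within work on Arid1a, R-loops, STING and type I interferon.

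CCL5 is a chemokine that antigen-experienced CD8 T cells keep ready as transcript, whereas naive cells make little. CCR2 and CXCR3 are receptors that carry T cells towards inflamed tissue, CCR2 along CCL2 and related chemokines made by monocytes and stroma, CXCR3 along the interferon-induced chemokines CXCL9 and CXCL10. ITGA1 pairs with ITGB1 to form the collagen receptor VLA-1, a molecule of memory T cells in peripheral tissue. A resting memory cell of this kind typically keeps the interleukin-7 receptor and a low level of effector transcripts.

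The 4 libraries gave 317, 321, 362 and 515 members, in the order sgScr replicates 1 and 2 and sgArid1a replicates 1 and 2, which is the order of every series of 4 values below. The members' summed UMIs were 1420348, 1351178, 937764 and 2211959, and their median UMIs per cell were 4003, 3937, 2292 and 3848. The cells of sgArid1a replicate 1 were thus the shallowest, as were the other barcodes of that library (medians 3737, 3582.5, 2414 and 4039). Any 2 libraries shared between 78 and 231 deposited cell barcodes. Levels are given as CPM, UMIs per 1000000 UMIs of the summed cells.

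The CD8 T cell identity of the members was borne out by their transcripts. Cd8a was seen in 82.3, 79.8, 73.5 and 86.8% of members and Cd3e, a chain of the receptor complex, in 96.8, 93.8, 88.4 and 96.3%. Cd4 had a UMI in 0, 0, 3 and 0 cells and Foxp3, the regulatory T cell factor, in 0, 1, 6 and 1 cells. The 5 CD4 and regulatory T cell markers summed to 7.74, 11.1, 36.3 and 7.69 CPM, so sgArid1a replicate 1 stood highest. Lyz2, Csf1r and Ncr1, which define myeloid and natural killer cells, had no UMI in any member. That allows up to 0.946, 0.935, 0.829 and 0.583% of cells with a UMI of each (counting error only) and does not limit the cells that express them. The 9 NK cell markers, of which Eomes was the largest, summed to 168, 197, 175 and 167 CPM. In other barcodes that sum was lower, at 97.2, 102, 153 and 141 CPM. The 15 monocyte markers, of which Plac8 was the largest, summed to 248, 232, 316 and 330 CPM. Other barcodes had 307, 308, 493 and 464 CPM of them. T cells also express Eomes and Plac8. Of the 6 neutrophil and mast cell markers all stood at 0, and the 7 melanoma markers reached at most 2.26 CPM. The 10 dendritic cell and MHC class II markers, led by Ccr7, summed to 205, 178, 100 and 162 CPM, and the 8 B cell markers to 218, 224, 162 and 176 CPM.

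Of the 4 names the cells go by, Cxcr3 was the one gene that the rule did not use. Cxcr3 (ENSMUSG00000050232, chromosome X, 101731535 to 101734269, GRCm38) had a UMI in 73.8, 68.5, 49.4 and 73.4% of members, against 27.1, 27.4, 28.9 and 40.9% of the other barcodes. In naive reference cells, which had no Ccl5 UMI but had UMIs of Lef1 and of lymph node homing genes, the share was 5.86, 6.55, 14.2 and 15.6% at median depths of 3590, 3503, 2156 and 3272.5 UMIs. With every cell thinned to 1500 UMIs the members' shares were 40.3, 39.5, 37.3 and 40.2%, which left out 2, 7, 56 and 5 cells. Most of the dip in sgArid1a replicate 1 was therefore no longer present at equal depth.

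The Ccl5 threshold mattered little, since members held a median of 52, 50, 32 and 50 Ccl5 UMIs and only 4, 4, 3 and 1 of them held exactly 3. Cells with 2 Ccl5 UMIs that met all other limits numbered 0, 2, 4 and 2. The receptor threshold cut through many more cells: 200, 221, 288 and 384 members had exactly 1 UMI of Ccr2 and Itga1, while 1665, 1513, 3355 and 3307 cells met every other limit with none. In the cells with exactly 1, Cxcr3 stood at 355, 328, 273 and 343 CPM and Gzmk at 279, 338, 293 and 258 CPM. In those with none, Cxcr3 stood at 197, 212, 254 and 254 CPM and Gzmk at 93.6, 114, 122 and 107 CPM. These 9840 cells are called the receptor-negative Ccl5 cells below. A cell that missed its 1 UMI by sampling falls among them.

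Cxcr3 and Cxcr6, chemokine receptors of inflamed tissue, were among the genes higher in members than in other barcodes. Gzmm and Ly6c2, described below, had more distinct levels than Cxcr3. The rule could admit a cell through Ccr2, itself such a receptor. Cxcr3 stood at 351, 344, 282 and 340 CPM in members against 104, 113, 113 and 115 CPM in other barcodes. For Cxcr6, the receptor for CXCL16, the members had 482, 435, 441 and 436 CPM and the others 214, 219, 320 and 340 CPM. In every library both receptors were higher in members. The chosen genes themselves stood at 245, 223, 292 and 193 CPM (Ccr2, chromosome 9, 124101950 to 124113557), 120, 135, 202 and 124 CPM (Itga1) and 14187, 13767, 15117 and 13593 CPM (Ccl5).

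Cytotoxic genes also differed between members and other barcodes. Over 19 cytotoxic effector genes the median log2 ratio of members to other barcodes was 0.42, 0.48, 0.34 and 0.21. Gzmm (ENSMUSG00000054206, chromosome 10, 79689020 to 79695261), a granzyme of NK and memory T cells, had the most distinct level outside the rule: 73.9, 84.4, 58.7 and 72.3 CPM against 13.5, 17.2, 12.3 and 13.3 CPM, a log2 ratio of 2.17 to 2.37 with a pseudocount of 1 CPM. Gzmk (ENSMUSG00000042385, chromosome 13, 113171608 to 113225908), the granzyme of less differentiated memory cells, stood at 322, 360, 318 and 288 CPM against 145, 157, 110 and 117 CPM. Fasl, the death ligand, stood at 118, 104, 106 and 105 CPM against 37.8, 36.3, 49.9 and 49.4 CPM. Gzmb went the other way, with 121, 104, 343 and 215 CPM in members and 153, 169, 430 and 498 CPM in other barcodes. The share of cells with a Gzmb UMI was not ordered that way, at 22.1, 18.7, 26.8 and 24.7% of members, 9.497, 9.92, 21.8 and 25.6% of other barcodes and 5.17, 6.28, 8.44 and 8.68% of the receptor-negative Ccl5 cells. The summed level of Gzmm, Gzmk and Fasl was thus higher and that of Gzmb lower in members than in all other barcodes in all 4 libraries.

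Some single genes of antigen-experienced cells were also higher in members, though as lists they differed little: the median log2 ratio to other barcodes was 0.04, 0.07, 0.27 and 0.28 over 21 memory and survival genes and 0.17, 0.50, 0.26 and 0.16 over 9 effector transcription factors. Ly6c2 (ENSMUSG00000022584, chromosome 15, 75108158 to 75111970), the Ly6C surface protein of memory CD8 cells, stood at 2839, 2477, 2893 and 3298 CPM against 865, 814, 1157 and 1247 CPM. In the receptor-negative Ccl5 cells it stood at 1720, 1678, 2378 and 2571 CPM, with a UMI in 83.8, 83.7, 82.7 and 88.0% of them and in 90.5, 88.5, 89.0 and 91.1% of members. Hopx, a cofactor of effector and memory T cells, stood at 419, 390, 445 and 456 CPM against 166, 170, 197 and 205 CPM. Cd44 was at 84.5, 85.9, 62.9 and 62.4 CPM against 36.1, 39.9, 47.8 and 46.0 CPM. Id2, an inhibitor of E proteins, was at 633, 637, 579 and 432 CPM against 232, 251, 273 and 243 CPM, and Tbx21, the T-bet gene, at 102, 86.6, 77.8 and 89.5 CPM against 36.4, 37.9, 52.4 and 58.9 CPM. Of the 15 genes with the most distinct levels, others were Ifitm10, St3gal6, Ctla2a, Wdr95, Ctla2b, Hsd11b1, Jaml and Ahnak, with lowest log2 ratios over the 4 libraries between 0.88 for Ahnak and 1.09 for Ifitm10 and St3gal6.

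Genes of lymph node recirculation were not those of a naive cell, nor absent. Ccr7, the receptor that guides cells into lymph nodes, stood at 125, 112, 72.5 and 110 CPM in members and 813, 785, 734 and 687 CPM in the naive reference. Il7r, the interleukin-7 receptor, stood at 665, 668, 569 and 520 CPM in members and 958, 942, 601 and 557 CPM in the naive reference. Members thus held less Ccr7 and less Il7r than the naive reference in every library, and kept most of the naive level of Il7r. The 2 Il7r levels lay closer in the sgArid1a libraries, where both the naive reference and the members were lower than in sgScr. S1pr1, which lets cells leave tissue, was at 95.8, 112, 102 and 101 CPM. Itgae, the CD103 integrin of resident cells in epithelia, was low at 12.7, 2.22, 5.33 and 8.59 CPM, and Zfp683, which encodes the residency factor Hobit, was low at 13.4, 8.88, 16 and 14.5 CPM. Itgb1, the partner chain of ITGA1, stood at 362, 317, 302 and 294 CPM against 149, 165, 175 and 166 CPM in other barcodes.

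Dividing-cell genes outside the rule were lower in members than in other barcodes. The median log2 ratio of 18 S phase genes was -0.83, -0.87, -1.41 and -1.33 and that of 14 G2 and M phase genes -3.47, -3.61, -3.66 and -4.06. Pclaf, a clamp-associated replication factor, stood at 1.41, 0, 7.46 and 5.43 CPM against 105, 105, 282 and 269 CPM, and Stmn1, which frees microtubules in dividing cells, at 15.5, 11.8, 18.1 and 23.5 CPM against 134, 144, 290 and 287 CPM. The other 8 genes most depleted in members were Nrgn, Ccnb2, Hist1h2ae, Cenpf, Rrm2, Tk1, Cdca8 and Rgs16. The rule limits 4 cycle genes, so this is a description of the cells chosen.

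**Figure D1:**
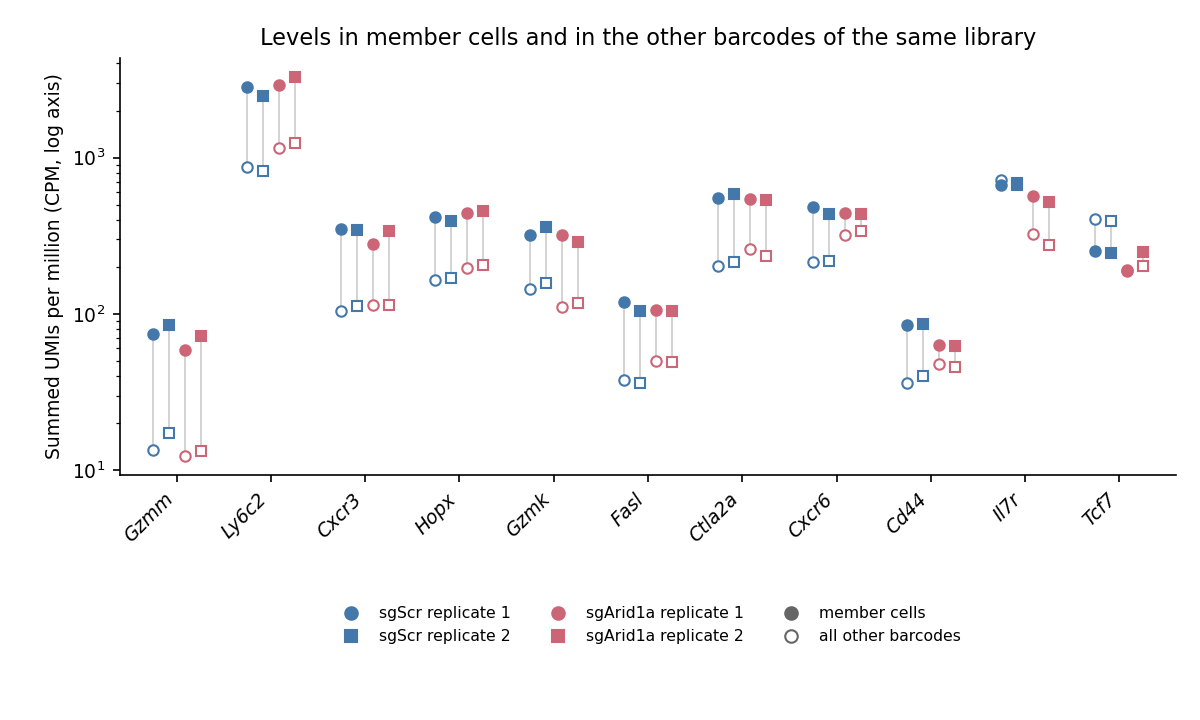
Summed UMIs in CPM (log axis) of 11 genes in the member cells (filled) and in all other barcodes (open) of each of the 4 libraries, joined by a line. Gzmm, Ly6c2, Cxcr3, Hopx, Gzmk, Fasl, Ctla2a, Cxcr6 and Cd44 were higher in members in each library, while Il7r and Tcf7 stood below the other barcodes in both sgScr libraries.

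Members were next split by which of the 2 genes admitted them. In 200, 221, 288 and 384 members the 2 genes together had exactly 1 UMI. Such a cell can hold only 1 of the 2 genes, so the split is partly set by the rule and by sparse counts. Of the members, 182, 176, 190 and 271 had Ccr2 without Itga1, 100, 115, 143 and 209 had Itga1 without Ccr2, and 35, 30, 29 and 35 had both. Itga1 without Ccr2 accounted for 31.5, 35.8, 39.5 and 40.6% of members. Comparing the first 2 kinds within each library with edgeR's quasi-likelihood test (Benjamini-Hochberg adjusted p, sample as a block), 63 of 5953 genes passed 0.05 (1.06%), with 44 higher in Ccr2 cells (0.739%) and 19 higher in Itga1 cells (0.319%), counts that include Ccr2 and Itga1 themselves. DESeq2 called 10 (0.225%) and 1 (0.0225%) of 4452 genes (0.247%). Without sgScr replicate 2, sgArid1a replicate 1 or sgArid1a replicate 2 the edgeR counts were 24 and 7, 23 and 6, and 27 and 7. In all, 1001 genes (16.8%) had the same sign in all 4 libraries. Ccr2 cells were the deeper, with median UMIs of 4292, 3955, 2397.5 and 4147 against 3571.5, 3716, 2070 and 3445.

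Granzymes were higher in the Ccr2 cells. Gzmm stood at 97.0, 115, 83.4 and 98.8 CPM in Ccr2 cells and at 34.5, 37.3, 30.3 and 36.0 CPM in Itga1 cells, and the sides did not overlap (log2 1.51 ± 0.17, SE, adjusted p = 1.65e-08). Gzmb (ENSMUSG00000015437, chromosome 14, 56258838 to 56262260), the main granzyme of killer cells, stood at 142, 134, 457 and 280 CPM against 56.7, 50.5, 170 and 109 CPM (1.38 ± 0.11, adjusted p = 1.3e-12). Gzma stood at 173, 111, 398 and 216 CPM against 73.9, 41.7, 115 and 112 CPM (1.28 ± 0.13, adjusted p = 4.92e-10). For Gzmb and Gzma the levels of the 2 sides overlapped between libraries but were ordered the same way within each. Gzmk was the least unequal of the 4, at 349, 432, 383 and 310 CPM against 229, 222, 203 and 214 CPM (0.73 ± 0.09, adjusted p = 8.99e-08). Of 18 cytotoxic effector genes tested, 5 passed, all higher in Ccr2 cells, and their median log2 difference was 0.08 against -0.01 over all genes tested. The fifth was Serpinb6b, a protease inhibitor (0.66 ± 0.17).

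Another gene of the Ccr2 side was Eomes, the T-box factor of memory CD8 cells, at 75.7, 96.2, 64.5 and 75.7 CPM against 29.6, 52.7, 36.4 and 23.6 CPM (1.22 ± 0.19, adjusted p = 2.18e-05). Its levels on the 2 sides did not overlap, but the call was lost with DESeq2 (adjusted p = 0.0714) and with thinned cells (0.202, the highest of its alternatives, the lowest being 3.71e-08). Ctla2a, a cysteine protease inhibitor of activated T cells, stood at 716, 730, 660 and 662 CPM against 264, 288, 349 and 359 CPM (1.12 ± 0.08, adjusted p = 2.7e-15), and its near-identical neighbour Ctla2b, which may share reads with it, differed by the same 1.12 and was lost when thinned (adjusted p = 0.22, the highest of its alternatives, the lowest being 5.22e-08). Klre1, an NK receptor gene, differed by 1.16 ± 0.23, and DESeq2 did not call it. Plek, which encodes pleckstrin, differed by 1.44 ± 0.30, with an adjusted p of 0.0729 without sgScr replicate 2. Fcgrt, the neonatal Fc receptor gene, differed by 1.10 ± 0.25, with an adjusted p of 0.276 without that library. Over all their alternatives the adjusted p of Plek ran from 0.000286 to 0.0729 and that of Fcgrt from 0.000248 to 1. Gzma, Gzmb, Gzmk and Ctla2a stayed called in each of 10 alternatives. Gzmm was lost only when each cell was thinned to 1500 UMIs (adjusted p = 0.22, the highest of its alternatives, the lowest being 2.35e-14).

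On the Itga1 side the called genes were mostly smaller in their difference. Cd7, a surface protein of T cells, stood at 458, 321, 507 and 501 CPM in Itga1 cells and 238, 232, 453 and 398 CPM in Ccr2 cells (Ccr2 minus Itga1 -0.45 ± 0.08, adjusted p = 0.00113). Il7r stood at 774, 793, 652 and 609 CPM against 625, 606, 510 and 475 CPM (-0.35 ± 0.06, adjusted p = 2.85e-04). Itgb7, an integrin chain that pairs with ITGA4 in gut homing, stood at 239, 268, 167 and 237 CPM against 154, 163, 159 and 174 CPM (-0.49 ± 0.10, adjusted p = 0.00537), and without sgScr replicate 2 the adjusted p was 0.116. Itga4 itself differed by -0.37 ± 0.08 (adjusted p = 0.00573), which was 0.0773 without sgScr replicate 2 and 0.231 without sgArid1a replicate 2. Car2, a carbonic anhydrase, stood at 51.8, 26.3, 66.7 and 51.0 CPM against 9.47, 6.59, 19.0 and 35.1 CPM (-1.27 ± 0.25, adjusted p = 0.003), and without sgArid1a replicate 1 the adjusted p was 0.110. Over their alternatives the adjusted p ran to 0.223 for Cd7, 0.182 for Il7r, 0.655 for Itgb7, 0.681 for Itga4 and 0.110 for Car2. Itgb1, the chain that ITGA1 needs, differed by -0.33 ± 0.08 (adjusted p = 0.0265) and was lost without each of the 4 libraries in turn (adjusted p 0.0520 to 0.282, range over all alternatives 0.00441 to 1). Ikzf2, Parp14, Inpp4b, Klf6, Tubb4b and Ccnd2 were the others among the 10 largest, and each was lost in at least 4 alternatives, several without 1 library. Cxcr3 did not differ beyond its error (-0.01 ± 0.08).

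**Figure D2:**
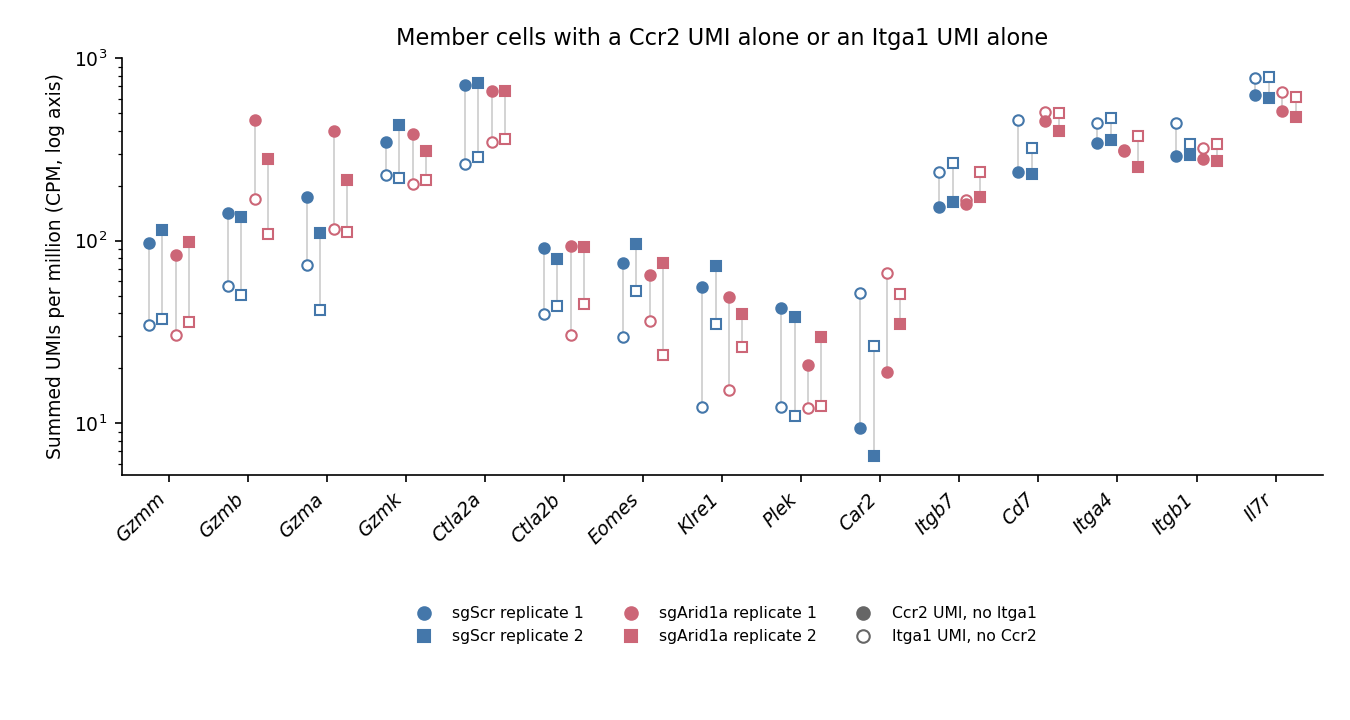
Summed UMIs in CPM (log axis) of 15 genes in members with a Ccr2 UMI and none of Itga1 (filled) and in members with an Itga1 UMI and none of Ccr2 (open), joined within each of the 4 libraries. The 4 granzymes on the left were higher on the Ccr2 side in each library (Gzmm at 83.4 to 115 CPM against 30.3 to 37.3 CPM), and Il7r on the right was higher on the Itga1 side.

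The share of members among the barcodes was compared between groups. Members made up 4.15% (95% Wilson interval 3.72 to 4.62) and 4.48% (4.02 to 4.98) of the sgScr barcodes and 3.38% (3.05 to 3.74) and 4.03% (3.70 to 4.38) of the sgArid1a barcodes. Both sgArid1a shares were below both sgScr shares, by 0.609 percentage points on average (exact two-sided permutation p = 0.333, n = 2 against 2, the smallest this design allows). Thinning every cell to 1500 UMIs and applying the rule again gave 2.71, 2.75, 2.56 and 2.97%, so that the groups overlapped and the mean difference turned to 0.0334 points higher in sgArid1a (exact permutation p = 1). At 2500 UMIs, which left out 5597 cells of sgArid1a replicate 1, the shares were 3.77, 3.78, 2.64 and 3.59%, with the groups apart and a mean difference of -0.659 points (exact permutation p = 0.333). Among barcodes with at least 3 Ccl5 UMIs, members were 9.34, 9.99, 5.13 and 5.85%, while such barcodes made up 44.4, 44.8, 65.9 and 68.8% of the libraries. The interval covers counting error only.

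The contrast the study was built on, sgArid1a against sgScr, was tested within the members. Minorities of the interferon-induced, chemokine, granzyme and stress genes tested were higher in the sgArid1a members, with counts given below for each list. Summed per library and tested with edgeR, 67 of 8121 genes (0.825%) had an adjusted p below 0.05, of which 50 were higher in sgArid1a (0.616%) and 17 lower (0.209%). Without sgArid1a replicate 1 the counts were 108 and 69, without sgArid1a replicate 2 they were 111 and 30, and without sgScr replicate 1 the lower genes numbered 11. At an unadjusted p under 0.05 there were 487 higher and 413 lower. Groups that did not overlap were common, in 3388 genes (41.7%; 17% higher and 24.7% lower), so an absence of overlap alone says little here. DESeq2 called 19 higher (0.349%) and 5 lower (0.0918%) of 5444 genes (0.441% in all). Of the 50 higher genes, 5 were receptor segments, 2 were rule genes (Isg15 and Ifit3), 1 was a predicted gene and 42 were others. Of the 17 lower genes, 4 were receptor segments, 1 was the immunoglobulin gene Igkc, 1 was a predicted gene and 11 were others. Arid1a itself (ENSMUSG00000007880, chromosome 4, 133679008 to 133756769) stood at 101, 90.3, 90.6 and 80.0 CPM in members, a difference of -0.16 ± 0.15 (adjusted p = 0.714), and a guide can disrupt a protein without lowering its transcript.

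Of 29 tested genes induced by type I interferon and outside the rule, 8 were higher and 0 lower, with a median log2 difference of 0.35 against -0.01 over all genes. Rtp4 (ENSMUSG00000033355, chromosome 16, 23520291 to 23614222), a chaperone-like protein with antiviral action, stood at 36.6 and 29.6 CPM in sgScr and 103 and 92.2 CPM in sgArid1a (1.57 ± 0.17, adjusted p = 5.21e-07). Ifi27l2a (ENSMUSG00000079017, chromosome 12, 103442167 to 103443680), a small interferon-induced membrane protein, stood at 234 and 187 CPM in sgScr and 543 and 448 CPM in sgArid1a (1.25 ± 0.12, adjusted p = 1.37e-08). The naming rule required groups apart for both. Both stayed called in 15 of 15 alternatives, DESeq2 included. Bst2, the virus-tethering protein tetherin, stood at 131, 138, 219 and 209 CPM (0.70 ± 0.12, adjusted p = 4.13e-04). Irf7, the interferon amplifier (0.92 ± 0.15), Zbp1, a nucleic acid sensor (0.90 ± 0.16), Isg20, an exonuclease (0.78 ± 0.19), and Ifi47, a GTPase (0.61 ± 0.10), were also among the 8. DESeq2 called 6 of 22, and over 13 alternatives the count ran from 4 to 12.

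The list of interferon-gamma responses moved alike, with 7 of 30 tested genes higher and 0 lower and a median of 0.38. Ly6a, the Sca-1 surface protein, stood at 582, 494, 984 and 782 CPM (0.74 ± 0.10, adjusted p = 2.95e-05), a call that DESeq2 did not make. Psme2, a proteasome activator subunit, stood at 452, 443, 681 and 650 CPM (0.60 ± 0.09, adjusted p = 8.79e-05). Gbp6 and Gbp2, guanylate-binding proteins that attack intracellular pathogens, stood at 29.6, 24.4, 70.4 and 54.7 CPM (1.18 ± 0.20, adjusted p = 6.33e-04) and at 42.9, 47.4, 80.0 and 80.9 CPM (0.87 ± 0.16, adjusted p = 0.002). In each of these genes both sgArid1a libraries were above both sgScr libraries. Psmb8, an immunoproteasome subunit (0.42 ± 0.08), Psme1 (0.43 ± 0.09) and Igtp (0.70 ± 0.15) were the others. DESeq2 called 3 of 27, and the count ran from 3 to 12 over 13 alternatives. Ifng itself stood at 33.1, 31.8, 45.9 and 46.6 CPM (0.54 ± 0.20, adjusted p = 0.238). Of 10 tested genes of interferon and STING signalling, edgeR and DESeq2 called 0, and 1 was lower at an unadjusted p under 0.05.

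The rule caps 5 interferon genes, Isg15 and Ifit3 among them, at 3 UMIs a cell. Their levels in members are bounded by that choice and support nothing. Without the cap, an alternative added after the data were seen, 59 genes were higher (0.729%) and 15 lower (0.185%) of 8093 (0.914%), with 10 of 31 type I and 9 of 30 interferon-gamma genes higher.

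The promoters of Gbp2 and Bst2, called genes outside the rule, are shown, chosen among those with a match, because the letters of the interferon-stimulated response element are a feature that the expression values did not use. The sequences are the 250 bases before the RefSeq transcript start in GRCm38.p6, read 5′ to 3′ on the gene's strand. Capitals mark matches of TTTCNNTTTC or its reverse complement GAAANNGAAA, searched on both strands, with overlapping matches run together.
Gbp2 (chr3:142620413-142620662, plus strand): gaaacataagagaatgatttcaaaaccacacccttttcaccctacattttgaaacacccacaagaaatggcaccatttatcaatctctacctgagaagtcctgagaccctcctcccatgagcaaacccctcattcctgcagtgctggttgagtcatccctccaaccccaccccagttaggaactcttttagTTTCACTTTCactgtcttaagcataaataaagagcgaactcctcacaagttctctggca
Bst2 (chr8:71537473-71537722, minus strand): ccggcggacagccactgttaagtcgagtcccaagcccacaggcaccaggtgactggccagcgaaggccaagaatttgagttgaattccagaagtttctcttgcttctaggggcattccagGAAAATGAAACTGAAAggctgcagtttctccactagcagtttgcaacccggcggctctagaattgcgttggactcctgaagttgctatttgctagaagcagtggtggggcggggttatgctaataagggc
Gbp2 held 1 match, 59 bases upstream of the start, and Bst2 held 2, the farther 130 bases upstream. Outside the rule the motif was present in 4 of 36 promoters of the 30 matched genes higher in sgArid1a members (11.1%), those of Bst2, Gbp2, Gzma and Igtp, and with the rule genes Isg15 and Ifit3 in 6 of 38 (15.8%). It was present in 1 of 9 promoters of 8 lower genes (11.1%), that of Rpl5, the same share as outside the rule. In the promoters of all genes tested it was present in 2.82%, and in all 32817 promoters in 2.97%. The gamma-activated motif TTCNNNGAA was in 5 of the 36 (13.9%), against 5.82% of those of genes tested and 7.01% of all. A match describes the letters and not a site in use.

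Chemokines formed another group. Of 8 chemokines and cytokines tested, 3 were higher and 0 lower, with a median of 0.83. Xcl1 (ENSMUSG00000026573, chromosome 1, 164931644 to 164935527), which attracts cross-presenting dendritic cells, stood at 67.6 and 51.1 CPM in sgScr and 132 and 165 CPM in sgArid1a (1.39 ± 0.15, adjusted p = 4.7e-07). In sgArid1a replicate 2, 1 cell held 26.8% of the Xcl1 UMIs, and the level without it was 121 CPM. Ccl4 stood at 118, 92.5, 176 and 344 CPM (1.41 ± 0.17, adjusted p = 3.67e-06), but 1 cell held 48.6% of the UMIs of sgArid1a replicate 2, which stood at 177 CPM without it, and DESeq2 did not call the gene. Ccl3, a chemokine related to Ccl4, stood at 18.3, 11.1, 53.3 and 30.7 CPM (1.40 ± 0.29, adjusted p = 0.00599). There 1 cell held 42.0% of the UMIs of sgArid1a replicate 1, and without sgScr replicate 2 the adjusted p was 0.0589. Over their alternatives the adjusted p reached 0.560 for Ccl4, 0.507 for Ccl3 and 0.0131 for Xcl1. The counts of this list ran from 1 to 5.

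Among 19 cytotoxic effector genes, 2 were higher and 0 lower, with a median of -0.01, equal to that of all genes. Gzmb stood at 121 and 104 CPM in sgScr and 343 and 215 CPM in sgArid1a (1.28 ± 0.15, adjusted p = 2.71e-06), and it had a UMI in 22.1, 18.7, 26.8 and 24.7% of members. Gzma stood at 135, 85.1, 306 and 167 CPM (1.05 ± 0.19, adjusted p = 0.00125), with a UMI in 14.2, 11.8, 12.4 and 13.4% of members. For Gzma the share of cells with a UMI overlapped between groups while the level did not. DESeq2 called neither, with an adjusted p of 0.0710 for Gzmb, and Gzma was also not called when thinned or when members were chosen on Ccr2 alone (adjusted p 1.94e-25 to 1 over its alternatives). Prf1, which encodes perforin, stood at 92.2, 104, 82.1 and 77.3 CPM (-0.28 ± 0.14, adjusted p = 0.474), and Gzmm and Gzmk at -0.19 ± 0.16 and -0.15 ± 0.10.

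Naive reference cells, which should lack granzymes and these chemokines, held some of them, and more in sgArid1a. Gzmb stood at 1.29, 1.52, 33.2 and 23.2 CPM, Gzma at 3.86, 5.97, 32.2 and 15.3 CPM, Ccl4 at 0.643, 1.65, 42.1 and 45.2 CPM and Xcl1 at 8.25, 15.7, 98.6 and 149 CPM there. In each the sgArid1a libraries were the higher. The members held 121, 104, 343 and 215 CPM of Gzmb, 135, 85.1, 306 and 167 CPM of Gzma and 118, 92.5, 176 and 344 CPM of Ccl4. For Xcl1, 98.6 and 149 CPM in sgArid1a naive cells compare with 132 and 165 CPM in sgArid1a members. Interferon genes were high in naive cells too, with Gbp2 at 64.7, 66.8, 102 and 124 CPM. The part of free RNA in the group differences was not tested.

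Of 19 stress and dissociation genes tested, 7 were higher in sgArid1a members and 0 lower, with a median of 0.32. DESeq2 called 4, and over 13 alternatives the count ran from 3 to 9. Hspa1b (ENSMUSG00000090877, chromosome 17, 34956436 to 34959238), an inducible HSP70 chaperone with a near-identical neighbour that may share reads, stood at 12.7, 14.1, 41.6 and 52.9 CPM (1.90 ± 0.25, adjusted p = 7.41e-06). Dusp1, an immediate-early phosphatase, stood at 24.6, 24.4, 68.2 and 60.1 CPM (1.39 ± 0.20, adjusted p = 3.99e-05), and Fos at 59.8, 52.5, 111 and 107 CPM (0.98 ± 0.15, adjusted p = 1.2e-04). Both sgArid1a libraries were above both controls in all 3, which the naming rule required of Hspa1b and Dusp1. Junb (0.69 ± 0.10), Jun (0.69 ± 0.14), Ier2 (0.53 ± 0.13) and Hspb1 were the others, and for Hspb1 1 cell held all of the UMIs of sgArid1a replicate 1 and 90.5% of those of sgArid1a replicate 2. Fos was also higher in the sgArid1a naive reference cells, at 47.4, 50.5, 111 and 108 CPM. These genes respond to tissue digestion, and their part in the other differences was not tested.

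**Figure D3:**
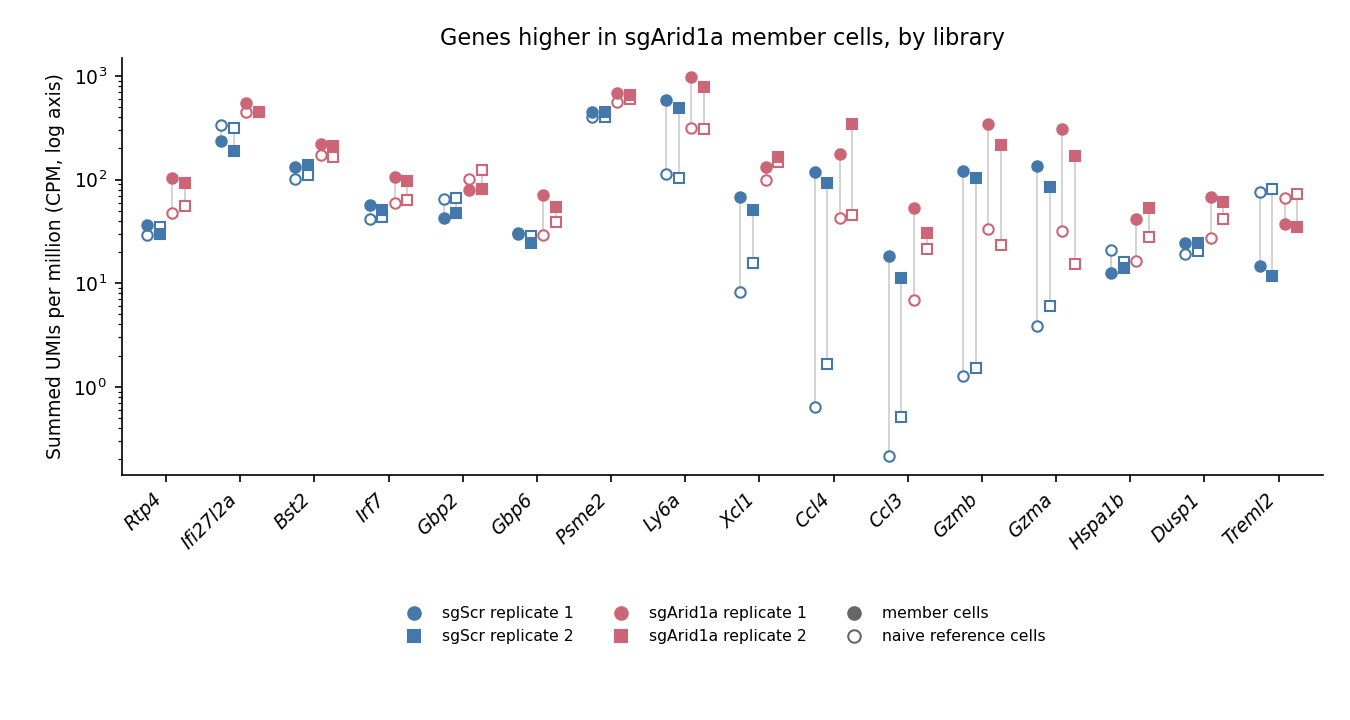
Summed UMIs in CPM (log axis) of 16 genes called higher in sgArid1a members, in member cells (filled) and in naive reference cells (open) of each library. Both sgArid1a libraries lay above both sgScr libraries in members, as with Rtp4 at 103 and 92.2 against 36.6 and 29.6 CPM. The naming rule required this of the genes it picked, Rtp4 among them. The naive level of Gzmb, Ccl4 and Xcl1 was also higher in sgArid1a.

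Treml2 and Car2 completed the 10 largest rises: Treml2, a surface receptor of the TREM family, stood at 14.8, 11.8, 37.3 and 34.8 CPM (1.44 ± 0.26, adjusted p = 0.00132), and Car2 at 23.2, 12.6, 36.3 and 42.5 CPM (1.19 ± 0.25, adjusted p = 0.00798). The groups did not overlap in either, as the naming rule required. Car2 had an adjusted p of 0.289 without sgScr replicate 2 and 0.0745 without sgArid1a replicate 2 (range over alternatives 9.1e-05 to 0.556), and Treml2 was lost with DESeq2 and when thinned (range 2.25e-05 to 0.203). Cd7 rose from 307 and 270 to 460 and 427 CPM (0.65 ± 0.10, adjusted p = 1.7e-04). Of 14 residency genes 2 were higher, Xcl1 and Rgs1, a brake on chemokine receptor signalling, which stood at 89.4, 82.2, 134 and 128 CPM (0.63 ± 0.14, adjusted p = 0.00798, and 0.232 without sgScr replicate 2). Nfkbia, the inhibitor of NF-kB, was the 1 of 13 receptor-induced genes called (0.58 ± 0.12, adjusted p = 0.00587, and 0.304 without sgScr replicate 2). Their adjusted p ran over alternatives to 0.372 for Rgs1 and 0.304 for Nfkbia. Of the markers of other cells, Plac8 of the monocyte list (0.75) and Fcer1g of the NK list (1.78) were higher. Both calls were lost without sgScr replicate 2, and that of Plac8 also when each cell was thinned to 1500 UMIs. Igkc was lower, at 39.4, 48.1, 12.8 and 8.14 CPM (-2.15), and its call was lost when thinned (edgeR adjusted p = 0.0774).

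Genes lower in sgArid1a members were fewer and less stable. Ribosomal protein genes Rpl5, at 1288, 1353, 994 and 797 CPM (-0.54 ± 0.09, adjusted p = 6.33e-04), and Rpl13a, at 4182, 4520, 3435 and 2573 CPM (-0.50 ± 0.09, adjusted p = 0.00144), stood below both controls, and Rpl5 stayed called in 15 of 15 alternatives, while Rpl13a was lost with DESeq2 (adjusted p = 1, the highest of its alternatives, the lowest being 2.53e-25). Their levels in naive reference cells were ordered the same way, 1561, 1700, 1267 and 1062 CPM for Rpl5. Ahnak, a giant scaffold protein of memory and effector cells, stood at 500, 548, 375 and 337 CPM (-0.53 ± 0.10, adjusted p = 0.00152), Adgre5, the adhesion receptor CD97, at 201, 184, 127 and 123 CPM (-0.59 ± 0.12, adjusted p = 0.00432), and Klhl6 at 125, 135, 73.6 and 86.3 CPM (-0.64 ± 0.14, adjusted p = 0.00821). In all 3 the groups were apart, as the naming rule required, and each call was lost in some alternatives. Ahnak was lost in 1 of 15, Klhl6 in 3, DESeq2 and the rule with Ccr2 alone among them, and Adgre5 in 4, with DESeq2, thinned cells and the rule with Ccr2 alone among them. Where a library is left out, its group has 1 sample, assumed to vary like the other group. Without sgScr replicate 2 the adjusted p was 0.173 for Ahnak and 0.164 for Klhl6, and without sgScr replicate 1 it was 0.229 for Adgre5, with differences of -0.46, -0.59 and -0.52. Over alternatives it reached 0.173 for Ahnak, 0.394 for Klhl6 and 0.359 for Adgre5. Nup50, a nuclear pore protein, stood at 51.4, 47.4, 25.6 and 27.1 CPM (-0.86 ± 0.20, adjusted p = 0.0258), and Camk2n1, Arhgef18 and Diaph1 were also among the 10 largest falls. Each of these 4 was lost in at least 6 of 15 alternatives, some of them without 1 library. Txnip, a brake on glucose uptake, was the 1 of 14 quiescence genes called (-0.44 ± 0.10, adjusted p = 0.019), with 0.393 without sgScr replicate 1, 0.161 without sgScr replicate 2 and 0.192 without sgArid1a replicate 2 (range 1.93e-06 to 0.393).

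Several groups gave no call in members, in edgeR or in DESeq2. None of 14 naive-state genes passed (3 higher and 1 lower at an unadjusted p under 0.05), nor of 12 circulation and egress genes (0 and 1), 23 memory and survival genes (2 and 5), 11 effector transcription factors (1 and 1) or 11 inhibitory receptor and exhaustion genes (2 and 1). Among 4 chemokine receptors outside the rule, 0 passed and 0 had an unadjusted p under 0.05. Cxcr3 differed by -0.11 ± 0.10 and Cxcr6 by -0.03 ± 0.10. Of 17 integrins and adhesion genes 0 passed (1 and 2), of 16 SWI/SNF subunits 0 (1 and 4), of 19 S phase genes 0 (6 and 1) and of 14 glycolysis genes 0 (2 and 1). Cox5a was the 1 of 19 oxidative phosphorylation genes called by edgeR (0.41 ± 0.10, adjusted p = 0.0233), and DESeq2 called 0 of them. Its call was lost in 5 of 15 alternatives, with DESeq2, thinned cells, the rule with Ccr2 alone and without either sgScr library (adjusted p 0.00285 to 0.607). Il7r, with 665 and 668 CPM in sgScr and 569 and 520 CPM in sgArid1a, missed the threshold (-0.26 ± 0.09, adjusted p = 0.213).

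Whether the group difference in members was unlike that in the rest of the library was tested as an interaction. In the other 36801 barcodes, 6958 of 12780 genes passed (54.4%; 27.9% higher and 26.5% lower). Those sums are far deeper. Thinned to the members' UMI totals, an alternative added after the data were seen, 1943 of 8324 passed (23.3%, with 12.9% higher and 10.5% lower). The thinned sums still drew on 7329, 6848, 10349 and 12275 cells, against 317, 321, 362 and 515 members. They match the members in UMIs but not in the number of cells sampled, so the shares that passed are not like for like. The interaction passed for 990 of 12332 genes (8.03%), positive in 370 (3%) and negative in 620 (5.03%), where positive means a difference further upward in members. DESeq2 gave 159 (3.58%) and 249 (5.61%) of 4442 genes (9.19%). Without sgScr replicate 2 or sgArid1a replicate 2 the positive genes numbered 223 and 182 and the negative ones 360 and 282, and without sgScr replicate 1 the negative ones numbered 192.

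Naive and recirculation genes were where members and the rest parted. Of 15 naive-state genes 14 were positive, with a median of 0.99, and of 12 egress genes 11, with a median of 1.01, against -0.04 over all genes. The lists share members, Ccr7 among them. Klf2, the factor that drives S1pr1, stood at 408, 397, 351 and 410 CPM in members and at 628, 618, 250 and 307 CPM in other barcodes (interaction 1.07 ± 0.08, adjusted p = 2.3e-18). Il7r stood at 723, 691, 323 and 276 CPM in the others (0.95 ± 0.07, adjusted p = 1.21e-17), Tcf7 at 402, 396, 187 and 203 CPM (0.88 ± 0.09) and S1pr1 at 136, 134, 61.1 and 63.2 CPM (1.08 ± 0.13). In members none of these genes passed the group test, while in the other barcodes both sgArid1a libraries were far below both controls. The other barcodes mix states whose shares differ between groups, as the Ccl5 shares above show, and composition and level within a state cannot be told apart there.

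On the negative side stood 15 of 19 oxidative phosphorylation genes (median -0.36), 8 of 15 glycolysis genes (median -0.54), 9 of 13 S100 and galectin genes (median -0.47) and 10 of 22 cytotoxic genes, of which 2 were positive. Prf1 had an interaction of -1.38 (adjusted p = 1.9e-12) and Lgals1, galectin-1, of -0.94 ± 0.07, with 1104, 1052, 1377 and 1257 CPM in members and 1028, 1029, 2411 and 2357 CPM in the rest. Ifng had -1.14 ± 0.21 (adjusted p = 4.76e-05). Of 34 type I interferon genes 11 were positive and 0 negative, with a median of 0.41, among them Rtp4 (0.68 ± 0.18).

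Against the receptor-negative Ccl5 cells, the nearest cells outside the rule, most of these calls were lost, though Il7r and Lgals1 stayed called. That interaction, added after the data were seen, passed for 27 of 10019 genes (0.269%), 9 positive (0.0898%) and 18 negative (0.18%). Of the naive list 1 of 15 passed (Dapl1), of the egress list 0 of 12, and of the 31 type I and 31 interferon-gamma genes 0. Of 24 memory and survival genes 3 passed (Ly6c2, Id2 and Il7r), 1 of them positive. Of 13 S100 and galectin genes 3 were negative (S100a6, Lgals1 and Anxa2), and of 19 cytotoxic genes 1 (Nkg7). Of 19 oxidative phosphorylation and 15 glycolysis genes 0 passed. In the receptor-negative Ccl5 cells themselves 9.23% of 10396 genes passed, with 6.11% higher and 3.13% lower. There 19 of 32 type I genes and 24 of 31 interferon-gamma genes were higher in sgArid1a. Among 5 chemokine receptors 2 passed on the negative side, Cxcr6 and Cxcr3. Cxcr3 stood at 197, 212, 254 and 254 CPM in the receptor-negative cells, higher in sgArid1a, and at 351, 344, 282 and 340 CPM in members. Cxcr6 stood at 159, 156, 211 and 201 CPM in the receptor-negative cells.

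**Figure D4:**
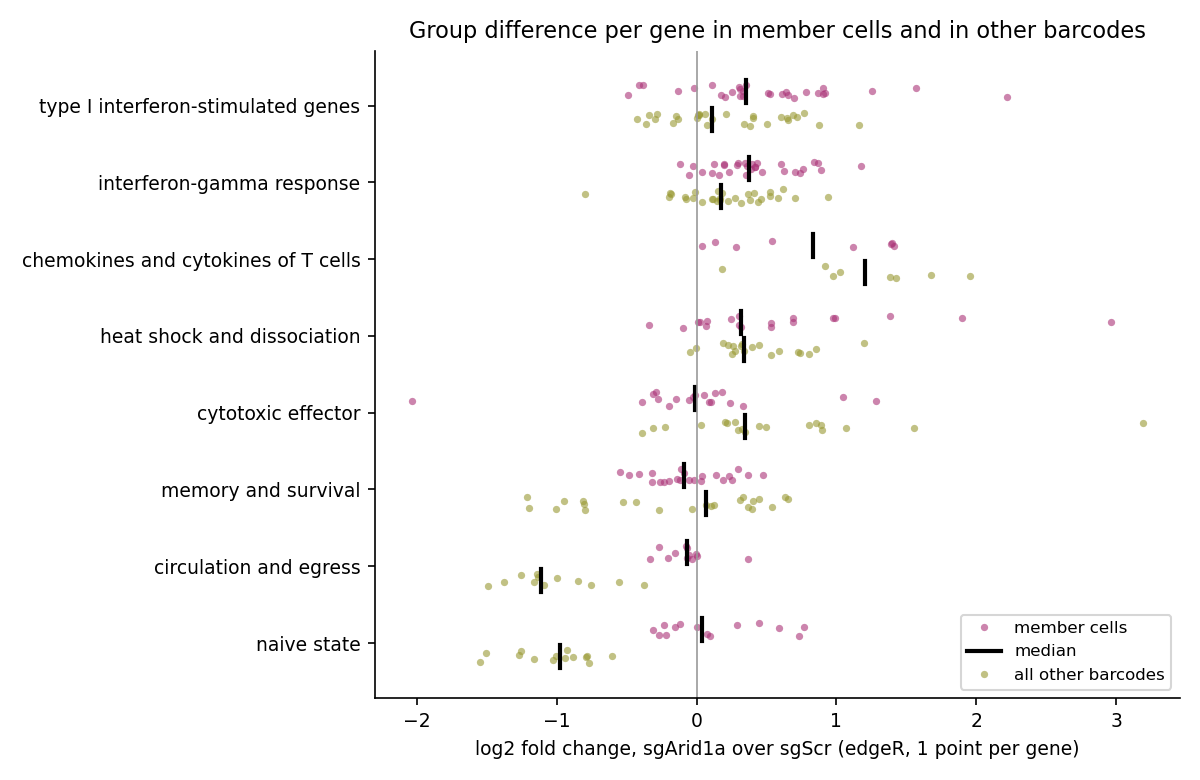
Difference between sgArid1a and sgScr (log2, 1 point per gene tested in both, black bar the median) for 8 gene lists without rule genes, in members and in all other barcodes. Egress and naive-state genes lay near 0 in members (medians -0.07 and 0.04) and below 0 in the other barcodes, while both interferon lists were shifted upward in members (0.35 and 0.38).

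Receptor segments, which the rule did not use, were compared between members and the rest. A segment, or a pair of segments, does not define a clone, so sharing of clones was not tested. A Trbv segment, the variable part of the receptor beta chain, was called in 84.9, 78.2, 71.8 and 83.7% of members (269, 251, 260 and 431 cells). Members used 20, 19, 20 and 19 segments, and the largest held 11.9% (Trbv19), 12.4% (Trbv13-1), 14.6% (Trbv3) and 12.8% (Trbv3). Trbv13-1 made up 8.92, 12.4, 3.46 and 6.26% of members and 7.55, 7.75, 14.6 and 13.6% of other barcodes. Members therefore stood above the rest in sgScr and below it in sgArid1a, with a mean difference of -3.14 points (exact sign-flip permutation p = 0.5, n = 4). Trbv20 made up 1.86, 1.20, 3.46 and 2.78% of members and 2.70, 2.57, 8.59 and 8.02% of the rest, lower in 4 of 4 libraries (mean difference -3.15 points, exact sign-flip permutation p = 0.125, the smallest 4 libraries allow). The 3 leading segments of each library together held 24.2, 24.7, 25.4 and 27.8% of members and 28.4, 28.8, 34.1 and 32.3% of the rest (mean -5.37, the same exact permutation p = 0.125). With 3 such tests no adjusted p can pass.

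The receptor-negative Ccl5 cells had Trbv13-1 in 7.22, 7.87, 7.79 and 6.82% and Trbv20 in 2.38, 2.46, 3.62 and 2.84%. Against them the members' Trbv13-1 share was again above in both sgScr libraries and below in both sgArid1a libraries, with smaller differences of -4.33 to 4.48 points and a mean of 0.321 (exact sign-flip permutation p = 0.875, n = 4). Trbv20 was again lower in 4 of 4 libraries, by a mean of -0.499 points (-1.26 to -0.0521, exact permutation p = 0.125). The 3 leading segments differed by -5.52 to 1.09 points (mean -1.73, exact permutation p = 0.375). Of the alpha and beta segments together, the pair Trav10 with Trbv13-1 was carried by 252 (13%) and 387 (9.90%) of the other sgArid1a barcodes with a called pair, and by 0, 0, 2 and 0 of 139, 129, 87 and 205 members with one. The count of 0 of 205 allows a share of up to 1.46%. The 4 libraries' members held 98, 93, 70 and 140 distinct pairs. The most frequent were Trav12-2 with Trbv15 (8 cells), Trav14-3 with Trbv13-1 (8), Trav7-5 with Trbv16 (6) and Trav19 with Trbv17 (10), a different one in each library. Segment genes called lower in sgArid1a members in the group comparison above were Trbv13-1, Trbv15, Trav13d-1 and Trav14-3. Those called higher were Trbv3, Trbv17, Trbv29, Trav10 and Trav19. Trav10 was thus higher in sgArid1a members, although few members carried it in a called pair with Trbv13-1. Cells with 2 or more segments, which include doublets, made up 13.6, 17.4, 7.46 and 15.5% of members and 11, 10.3, 6.72 and 13.1% of the rest.

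**Figure D5:**
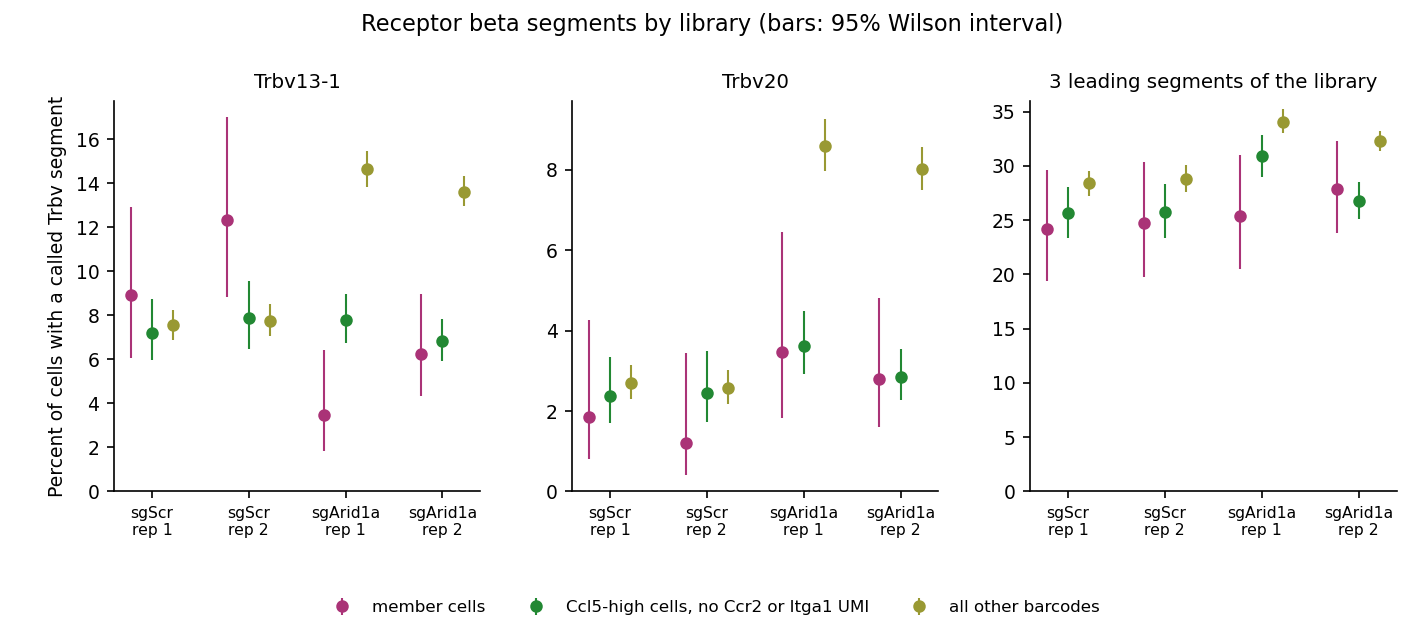
Percent of cells with a called beta segment that carried Trbv13-1, Trbv20 or any of the 3 leading segments of their library, in members, receptor-negative Ccl5 cells and all other barcodes (points, with 95% Wilson intervals for counting error). Members and receptor-negative cells lay close in Trbv20, at 1.20 to 3.46% against 2.38 to 3.62%, while the other sgArid1a barcodes reached 8.59 and 8.02%.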

How the data were processed

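The members and the gene lists were chosen with earlier results of these data known. Each library was deposited by the authors as a matrix of raw UMI counts for 32285 genes; per the file headers they were made with Cell Ranger 6.0.1, whereas Cell Ranger 3.0.2, Seurat and the mm10 build appear in the submitters' processing notes, a difference not settled here. Per the labels' protocols, tumours were digested with Liberase and DNase I, sorted, and made into 5′ droplet libraries with receptor amplification. Of 39473 barcodes, 38316 passed the filters on genes and mitochondrial UMIs. No doublet caller was used; cells with 2 or more Trbv segments were left out as an alternative. A segment was called at 2 or more UMIs and more than any other.

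UMI counts were summed per library over cells and tested with edgeR 4.0.16 (TMM, filterByExpr, glmQLFit and glmQLFTest, Benjamini-Hochberg over all genes tested) in R 4.3.3, without a block on replicate number. The interaction and the Ccr2 against Itga1 comparison had the library as a block. DESeq2 1.42.0 was an alternative; its missing adjusted p stayed missing. Other alternatives were relative log expression scaling, no low-count filter, thinning to 1500 UMIs per cell and other thresholds of the rule. Trbv13-1 and Trbv20 cells, or each library, were also left out. The scripts were tested on simulated counts. Of 506 list symbols (33 lists), 498 matched.

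Genes were named by rule: genes past the threshold, averaging 20 CPM or more and with groups that did not overlap, gave the 10 largest differences each way (6 each way for the interaction; for Ccr2 against Itga1, 10 each way with 1 sign in all libraries), without segments, predicted and rule genes; for members against other barcodes, the 15 highest and 10 lowest by the least distinct library at 50 CPM or more; and a short list of marker genes. Called list members and others beside them were named after their values were seen. Some genes are not reported here. Shares carry 95% Wilson intervals, and a count of 0 is bounded by 3 counts. Same-numbered libraries were treated as unpaired. Their deviations correlated at -0.0378 over 2533 genes. With 2 libraries per group this single value cannot show whether they were handled together. Python 3.11.15, numpy 2.4.6, scipy 1.17.1 and matplotlib 3.10.9 did the rest. Coordinates and promoters are from GRCm38 annotation (RefSeq for promoters).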

Additional observations from a re-analysis of the deposited data

Results flagged for a closer look

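For 12 genes the difference between sgArid1a and sgScr in members departed from that in the other barcodes by an edgeR interaction term (adjusted p under 0.05), and they are the largest such departures by the naming rule. On the log2 scale the departure was 2.23 for Treml2, 2.04 for Igfbp4, which binds insulin-like growth factors, 1.63 for Socs3, a feedback inhibitor of cytokine signalling, 1.54 for Rgcc, 1.51 for Dapl1 and 1.49 for Aff3. Igfbp4 stood at 31.0, 17.0, 29.9 and 38.4 CPM in members and at 153, 152, 46.4 and 58.6 CPM in other barcodes. Treml2 stood at 46.0, 47.4, 28.3 and 25.7 CPM in other barcodes, so it was higher in sgArid1a members and lower in the rest.

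In the opposite direction the departure was -1.97 for Klre1, -1.87 for Cd74, the MHC class II chaperone, -1.59 for Plek, -1.52 for Rrm1, a ribonucleotide reductase subunit, -1.49 for Bcl2a1d, a survival gene with near-identical copies that may share reads, and -1.48 for Rbpj, the Notch effector. Klre1 stood at 43.7, 59.9, 37.3 and 32.6 CPM in members and at 11.8, 11.9, 31.4 and 30.0 CPM in other barcodes. For Cd74, 1 cell held 90.7% of the members' UMIs in sgScr replicate 1 and 1 cell 94.6% in sgScr replicate 2, and the levels without these cells were 3.52 and 1.48 CPM. Bcl2a1d was not called without sgArid1a replicate 2 (adjusted p = 0.144, range over alternatives 9.69e-09 to 0.894). The rule limits 4 cycle genes and requires Ccl5, while the other barcodes include dividing and naive cells. For Rrm1, a replication gene, and the naive-state genes Igfbp4, Rgcc and Dapl1, composition and level within a state cannot be told apart there. Measured against the receptor-negative Ccl5 cells, 3 of the 12 stayed called, Treml2, Dapl1 and Cd74.

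The share of Trbv13-1 in members minus that in other barcodes was above 0 in both sgScr libraries (1.37 and 4.61 percentage points) and below 0 in both sgArid1a libraries (-11.2 and -7.36 points). The difference between the groups was not tested.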

How the results depend on the processing

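Of 1741 recomputed values for 131 single genes, 1512 kept direction and side of the threshold, 182 lost the call, 45 gained it and 2 turned sign, both Cd74 under the rule with Ccr2 alone (4.50 for the group difference, 3.74 for the interaction). Genes higher in sgArid1a members numbered 19 with DESeq2, 81 without the low-count filter, 19 with cells thinned to 1500 UMIs and 34 to 111 with each library left out in turn. Lower genes numbered 5, 37 and 6 in the same settings, 10 under the rule with Ccr2 alone, and 11 to 69 with libraries left out. Positive interactions numbered 159 with DESeq2, 116 without Trbv13-1 and Trbv20 cells, 97 thinned, 9 against the receptor-negative Ccl5 cells and 182 to 372 with libraries left out; negative ones 249, 171, 111, 18 and 192 to 548, and 286 with Ccr2 alone. Genes higher in Ccr2 cells numbered 10 with DESeq2, 73 without the filter, 10 thinned and 23 to 43 with libraries left out. Genes higher in Itga1 cells numbered 1 with DESeq2, 3 thinned, 11 without Trbv13-1 and Trbv20 cells and 6 to 15 with libraries left out. The member share differed by 0.0334 points when thinned to 1500 UMIs, by -0.659 at 2500, by -4.18 points among Ccl5-high barcodes and by -0.932 to -0.285 with libraries left out. Against the receptor-negative cells the mean differences were 0.321 points for Trbv13-1 (-4.33 to 4.48, above 0 in both sgScr and below 0 in both sgArid1a libraries), -0.499 for Trbv20 and -1.73 for the 3 leading segments. Thinning and left-out libraries lower the counts tested; other causes were not tested.

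With the replicate block, 28 genes were lower, and the count of higher genes stayed within 1.5 times. All 30 named genes of the group comparison kept their call under the block. Deviations of same-numbered libraries correlated at -0.0378, a single value that cannot show whether the shared numbers pair the samples.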

Other observations

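Oxidative phosphorylation and glycolysis genes gave further values. In members, oxidative phosphorylation genes had a median log2 difference between sgArid1a and sgScr of 0.21, with 18 of 19 above 0, although 1 was called. Gapdh, a glycolytic enzyme, stood at 596, 583, 505 and 995 CPM in members and at 817, 807, 1017 and 2058 CPM in other barcodes, so that sgArid1a replicate 2 stood apart from sgArid1a replicate 1 in both (interaction -0.58 ± 0.07, edgeR adjusted p = 4.53e-09). Eno1, another glycolytic enzyme, was ordered the same way in members, with 244, 243, 183 and 338 CPM. Against the receptor-negative Ccl5 cells the interaction passed for 0 of 15 glycolysis genes, Gapdh and Eno1 among them.

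NK receptor genes of the members were also distinct from those of the other barcodes. Klrc1, which encodes NKG2A, stood at 234, 212, 151 and 177 CPM in members and at 56.9, 57.5, 99.8 and 108 CPM in the rest (interaction -1.29 ± 0.10, edgeR adjusted p = 2.24e-16). The gap between members and the rest was thus narrower in both sgArid1a libraries. Within members the group difference of Klrc1 missed the threshold (-0.39 ± 0.12, edgeR adjusted p = 0.131). Il18r1, a chain of the interleukin-18 receptor, stood at 98.6, 118, 72.5 and 72.3 CPM in members and at 49.8, 51.9, 66.8 and 65.2 CPM in the rest (interaction -0.96 ± 0.14, edgeR adjusted p = 5.4e-07). Its difference within members was -0.55 ± 0.15 (edgeR adjusted p = 0.0713). Against the receptor-negative Ccl5 cells the interaction was called for neither Klrc1 nor Il18r1. The other barcodes mix states, so composition and level within a state cannot be told apart there.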
